A study of Mus musculus with 4 samples.

Results

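The lysosome and autophagy genes are 39 of the 54532 genes in the count table, found by matching the gene name of each row to a list of symbols. The list holds 11 lysosomal proteases, 9 other hydrolases and their cofactors, 6 proteins of the lysosomal membrane and of cholesterol export, 3 transcription factors and 10 autophagy genes, and each symbol matched 1 row. RNA-sequencing was performed on the mouse podocyte cell line MPC5, a conditionally immortalized line, in 2 groups of 2 libraries. The IL-12 group was treated with interleukin-12 at 400 ng/ml for 6 h, and the control group received saline. Both groups are the same line, which is expanded with interferon-gamma and differentiated without it. No source says whether replicate libraries were grown as separate cultures. The p-values therefore measure the spread between these libraries, which may be technical.

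The lysosome is the acidic compartment in which proteases and glycan, lipid and nucleic acid hydrolases break down material delivered by endocytosis and autophagy. In autophagy, a kinase complex starts a double membrane that is tagged with lipid-linked LC3 and GABARAP proteins, closes around cargo and fuses with lysosomes. Many genes of both systems are activated by TFEB, TFE3 and MITF, related factors that bind short palindromes in promoters. Podocytes, the post-mitotic cells of the glomerular filter, are known for a high basal rate of autophagy, and loss of the lysosomal enzyme alpha-galactosidase A in Fabry disease fills them with glycolipid.

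The libraries held from 18355379 to 20098012 counts, and a floor of 3 counts corresponds to 0.149 to 0.163 CPM, the usual unit of counts scaled to library size. The CPM values of genes also carry TMM scaling factors. Among podocyte markers, Nphs1 and Wt1 were at or near 0 and Tcf21 and Ptpro had no count in any library, so nephrin (Nphs1), a defining gene of the slit diaphragm, was in effect absent. The podocyte genes Synpo, Actn4 and Podxl were detected in all 4 libraries. Levels of RNA in a culture cannot tell fewer cells of a kind from less RNA per cell.

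The promoters below are shown because they carry the palindrome that TFEB-type factors are known to bind. Of these 4 genes 3 fell with IL-12, beside 60.0% of the 35 lysosome and autophagy genes tested. Promoters from RefSeq on GRCm38.p6, 250 bases before to 50 after each annotated start, were found for 33 of the 39 genes. The capitals mark TCACGTGA, which reads the same on both strands.
Ctsa: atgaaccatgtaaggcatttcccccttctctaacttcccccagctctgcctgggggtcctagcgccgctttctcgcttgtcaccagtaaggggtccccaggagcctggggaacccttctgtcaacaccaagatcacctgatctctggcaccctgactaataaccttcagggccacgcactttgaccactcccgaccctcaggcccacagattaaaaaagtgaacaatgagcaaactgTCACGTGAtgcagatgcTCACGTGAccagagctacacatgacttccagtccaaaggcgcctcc
Ctsd: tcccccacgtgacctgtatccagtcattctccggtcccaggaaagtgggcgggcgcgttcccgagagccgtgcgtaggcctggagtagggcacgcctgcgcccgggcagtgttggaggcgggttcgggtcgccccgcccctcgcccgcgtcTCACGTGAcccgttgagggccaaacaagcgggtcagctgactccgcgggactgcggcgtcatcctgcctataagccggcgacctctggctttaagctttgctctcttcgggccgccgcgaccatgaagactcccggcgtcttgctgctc
Mcoln1: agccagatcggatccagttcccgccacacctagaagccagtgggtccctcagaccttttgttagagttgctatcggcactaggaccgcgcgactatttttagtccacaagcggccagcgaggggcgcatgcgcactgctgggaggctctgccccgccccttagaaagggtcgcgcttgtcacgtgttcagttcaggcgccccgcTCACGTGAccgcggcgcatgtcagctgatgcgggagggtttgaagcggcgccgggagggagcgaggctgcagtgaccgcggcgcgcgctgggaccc
Gla: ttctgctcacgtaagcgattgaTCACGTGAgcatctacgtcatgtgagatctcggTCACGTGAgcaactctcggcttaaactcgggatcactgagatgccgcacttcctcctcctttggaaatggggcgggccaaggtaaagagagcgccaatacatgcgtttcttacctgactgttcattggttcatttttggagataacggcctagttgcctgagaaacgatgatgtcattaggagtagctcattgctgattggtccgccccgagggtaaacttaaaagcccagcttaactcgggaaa
These windows lie at chr2:164833523-164833822 on the plus strand for Ctsa, chr7:142387778-142388077 on the minus strand for Ctsd, chr8:3500269-3500568 on the plus strand for Mcoln1 and chrX:134600956-134601255 on the minus strand for Gla, each printed 5′ to 3′ along the gene. Ctsa and Gla carry 2 copies each. The match begins 99 bases before the start in Ctsd and 46 bases before it in Mcoln1.

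The 6-letter core CACGTG was present in 11 of the 33 promoters (33.3%), compared with 8.09% of all 27025 promoters in the table. Those 11 were Atg5, Atg7, Ctsa, Ctsd, Ctsf, Ctsl, Gla, Glb1, Lamp1, Lgmn and Mcoln1. The 8-letter form, which contains the core, was present in 4 of 33 (12.1%) compared with 1.12% of all promoters, and the 10-letter GTCACGTGAC, which contains both, was present in 0 of 33 compared with 0.37%. Among genes with a promoter, 5 of the 20 that fell with IL-12 held the core (25%), and 5 of the 9 that were tested and not called held it (55.6%). The 8-letter form was in 3 of those 20 (15%) and in 1 of those 9 (11.1%). A match describes these letters in this window and does not show binding.

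IL-12 treated podocytes had modestly lower RNA of most lysosome and autophagy genes. Of the 39 genes, 35 passed the filter on low counts, 21 fell, 1 rose and 13 were not called (edgeR quasi-likelihood test, Benjamini-Hochberg adjusted p below 0.05 over all 14095 genes tested). The share that fell was 60.0% of those tested, against a background of 14.4% of all genes tested. The share that rose was 2.86%, against a background of 16.1%. The changes were small, with a median log2 fold change of −0.15 and a range from −0.85 for Mitf to 0.25 for Gusb. The median over all genes tested was −0.0022, and 49.5% of all genes were above 0, compared with 3 of the 35.

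Well-expressed genes are more often called, and most of these genes were well expressed. Among the 9496 genes of at least 10 CPM, a threshold chosen after the values were seen, 18.2% fell and 21.7% rose, with a median log2 fold change of 0.011. Of the 33 lysosome and autophagy genes at that level, 20 fell (60.6%) and 1 rose. No gene was past the 2-fold limit that the study used beside its adjusted p, compared with a background of 1.61% of all genes, and the count was also 0 at an unadjusted p below 0.05 and with DESeq2. Both IL-12 libraries were below both control libraries for 26 of the 35 genes and above them for 1. Across all genes tested, 31.2% were lower in this way and 62.9% separated in either direction. An exact permutation test of 2 against 2 libraries cannot give a p below 0.333.

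**Figure D1:**
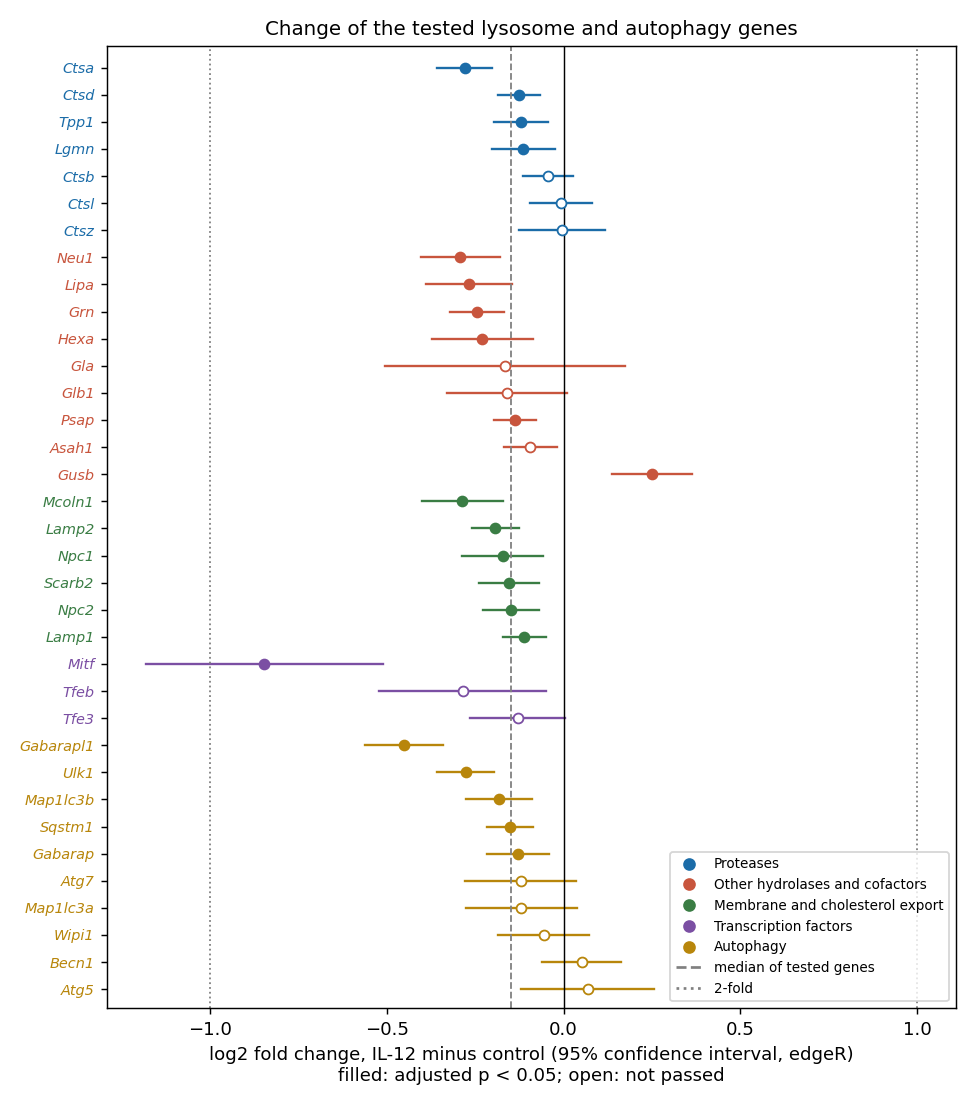
Log2 fold change, IL-12 over control, of the 35 tested lysosome and autophagy genes, grouped by role, with 95% confidence intervals from the quasi-likelihood fit, filled where called and open where not. Most points lie to the left of 0 (no change), Mitf lies farthest left at −0.85, and Gusb is the called gene to the right at 0.25.

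Per gene length, the most abundant transcripts encoded hydrolase cofactors, an aspartic protease and a membrane glycoprotein. Mean FPKM, which scales fragments by gene length and library total, over the 4 libraries was 271 for Psap, 223 for Ctsd, 208 for Lamp1, 122 for Sqstm1 and 89.6 for Gabarap. The next levels were 65.1 FPKM for Asah1, 64.1 for Grn and 62.9 for Ctsz, a stretch in which neighbours are close together. The transcription factors stood near the bottom, at 6.61 FPKM for Tfe3, 2.15 for Tfeb and 0.966 for Mitf. Ctsk (0.272 FPKM), Ctsf (0.0731), Ctsh (0.0028) and Ctss (0) were the lowest.

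**Figure D2:**
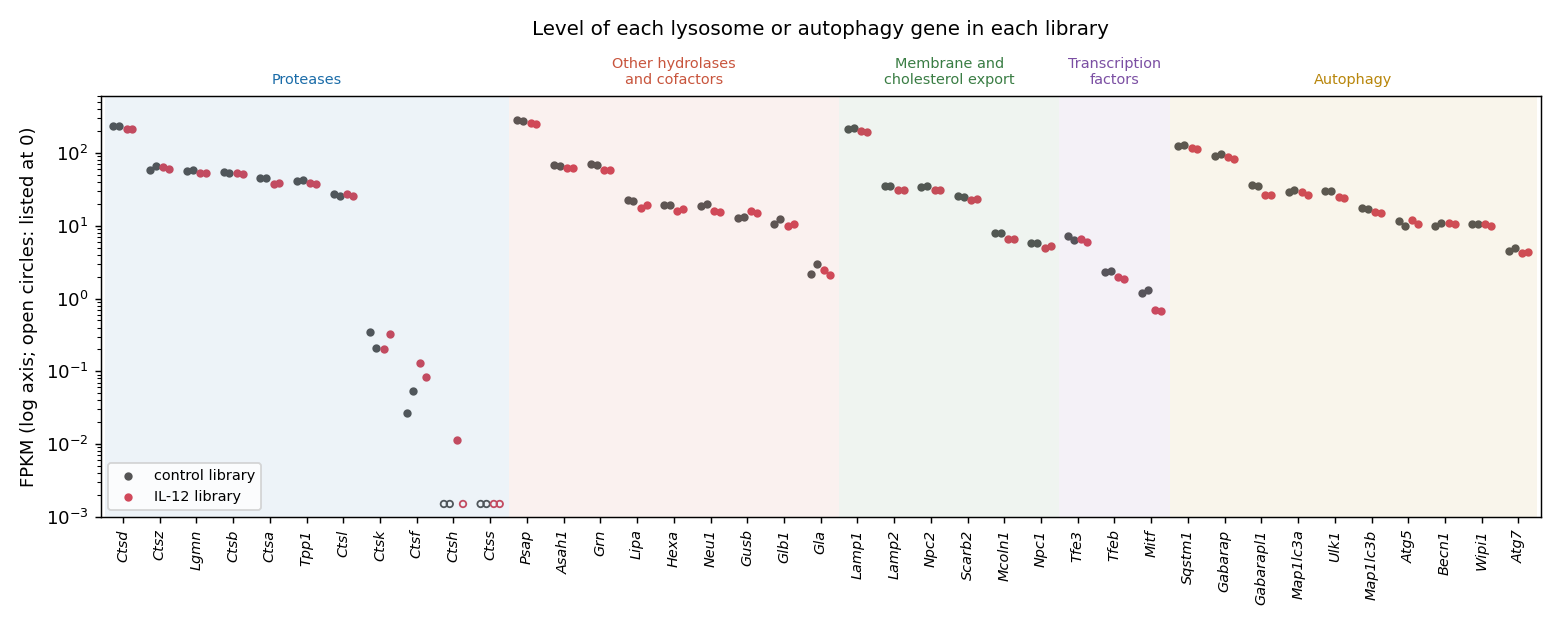
FPKM of each lysosome and autophagy gene in the 4 libraries on a log axis, with control and IL-12 libraries marked separately. Genes are ordered by mean level within each role, from 271 FPKM for Psap to Ctss, which is listed at 0 and drawn as open circles.

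Among the 11 proteases, 7 were tested and 4 fell (57.1%, beside 14.4% of all genes tested). These were Ctsa, Ctsd, Lgmn and Tpp1, while Ctsb, Ctsl and Ctsz were not called. Ctsa (ENSMUSG00000017760, chr2:164832873-164841032), the carboxypeptidase that also protects the sialidase Neu1 and the beta-galactosidase Glb1, had 217 and 216 CPM in the control libraries and 177 and 180.0 CPM in the IL-12 libraries. The groups did not overlap, and the log2 fold change was −0.28 (SE 0.04, edgeR adjusted p = 9.56e-06). Ctsd, the major aspartic protease of lysosomes (chr7:142375911-142388038), had 548 and 545 CPM in control and 506 and 495 CPM with IL-12. This was a change of −0.13 (SE 0.03, edgeR adjusted p = 0.00239), and again no library of one group reached the other. Tpp1, a tripeptidyl peptidase (chr7:105744811-105752235), had 214 and 217 CPM in control and 202 and 195 CPM with IL-12 (−0.12, SE 0.04, edgeR adjusted p = 0.0184). Lgmn, an asparagine-specific endopeptidase that matures cathepsins (chr12:102394084-102439813), had 131 and 134 CPM in control and 122 and 123 CPM with IL-12. It was just inside the threshold (−0.11, SE 0.04, edgeR adjusted p = 0.0493).

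The papain-family cathepsins did not pass the test. Ctsl, a cysteine protease known in podocytes for cleaving synaptopodin and dynamin, had 176 and 167 CPM in control and 175 and 167 CPM with IL-12, a log2 fold change of −0.01 with a 95% interval from −0.09 to 0.08. Ctsb had 331 and 326 CPM in control and 326 and 312 CPM with IL-12, with an interval from −0.11 to 0.03, and Ctsz had an interval from −0.13 to 0.12. None of these 3 intervals went beyond −0.13 or 0.12. Another 4 cathepsins were below the filter. Ctss, typical of antigen-presenting cells, had 0 counts in every library, Ctsh had 1 count in all, Ctsf had 1, 2, 5 and 3 counts, and Ctsk, the osteoclast collagenase, had 10, 6, 6 and 9 counts in the control and then the IL-12 libraries. No difference was detectable at this depth in these 4. The Lgmn call was lost when any library was left out (adjusted p from 0.103 to 0.265), and the Tpp1 call without control replicate 1 (0.0606), control replicate 2 (0.125) or IL-12 replicate 2 (0.123). Ctsa overlaps Pltp on the opposite strand, which had 2719 counts and a log2 fold change of −0.33, and it is not stated whether strand was used in counting.

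The hydrolases and cofactors held the only gene that rose. Gusb, the beta-glucuronidase that degrades glycosaminoglycans (ENSMUSG00000025534, chr5:129989011-130003049), had 57.7 and 59.3 CPM in control and 71.6 and 67.6 CPM with IL-12. Both IL-12 libraries were above both controls, a rise of 19.0% (log2 fold change 0.25, SE 0.05, edgeR adjusted p = 0.00134), and without IL-12 replicate 1 the adjusted p was 0.0541. Neu1, the sialidase (chr17:34931253-34935953), had 71.0 and 74.2 CPM in control and 60.5 and 58.0 CPM with IL-12. It fell by 0.29 on the log2 scale (SE 0.05, edgeR adjusted p = 0.000298), close to the change of its partner Ctsa.

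Grn encodes progranulin, a secreted and lysosomal protein cut into granulin peptides (chr11:102430315-102437048), and had 246 and 237 CPM in control and 204 and 203 CPM with IL-12. The log2 fold change was −0.25 (SE 0.04, edgeR adjusted p = 3.91e-05). Lipa, the acid lipase that frees cholesterol from its esters (chr19:34492318-34527474), had 67.8 and 64.7 CPM in control and 52.5 and 57.6 CPM with IL-12 (−0.27, SE 0.06, edgeR adjusted p = 0.00154). Hexa, a subunit of the hexosaminidase that degrades GM2 ganglioside (chr9:59539540-59565109), had 39.1 and 38.1 CPM in control and 32.3 and 33.6 CPM with IL-12 (−0.23, SE 0.07, edgeR adjusted p = 0.0144). The groups were separate for all 3. Psap, the precursor of the saposin cofactors (chr10:60277627-60302597), had 789 and 767 CPM in control and 717 and 698 CPM with IL-12, a smaller change from a much higher level (−0.14, SE 0.03, edgeR adjusted p = 0.00102).

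Asah1, the acid ceramidase, missed the threshold, with 229 and 226 CPM in control, 212 and 214 CPM with IL-12 and an adjusted p of 0.0521, and passed it under 5 of the 15 other settings. Glb1 had 31.8 and 37.4 CPM in control and 29.9 and 32.1 CPM with IL-12 (adjusted p = 0.153), and 0.0189 without control replicate 1. Gla, the enzyme lost in Fabry disease, had 7.07 and 9.84 CPM in control and 8.08 and 6.96 CPM with IL-12, with a wide interval of the log2 fold change from −0.51 to 0.17. The Lipa call was lost without IL-12 replicate 1 (adjusted p = 0.0753), and the Hexa call without control replicate 1 (0.0796), IL-12 replicate 1 (0.136) or IL-12 replicate 2 (0.0520). Grn overlaps Fam171a2 on the opposite strand, which had 2647 counts and a log2 fold change of −0.25.

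All 6 genes of the membrane and of cholesterol export fell, beside 14.4% of all genes tested and 18.2% of those of at least 10 CPM. In each both IL-12 libraries were below both controls, as in 31.2% of all genes tested. Mcoln1, the cation channel that releases calcium from lysosomes (ENSMUSG00000004567, chr8:3500457-3515232), had 59.7 and 60.4 CPM in control and 49.0 and 49.5 CPM with IL-12 (−0.29, SE 0.05, edgeR adjusted p = 0.000508). Lamp2, a membrane glycoprotein needed for fusion with autophagosomes (chrX:38401357-38456454), had 337 and 339 CPM in control and 296 and 296 CPM with IL-12 (−0.19, SE 0.03, edgeR adjusted p = 0.000117). Its relative Lamp1 (chr8:13159161-13175338) had 571 and 583 CPM in control and 541 and 528 CPM with IL-12 (−0.11, SE 0.03, edgeR adjusted p = 0.00666). The LAMP proteins form much of the protein coat on the inner face of the membrane.

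Scarb2, the receptor that carries glucocerebrosidase to lysosomes (chr5:92441314-92506833), had 162 and 158 CPM in control and 142 and 145 CPM with IL-12 (−0.16, SE 0.04, edgeR adjusted p = 0.00623). Npc1 and Npc2 pass cholesterol out of the lysosome, Npc2 in the lumen and Npc1 in the membrane. Npc2 (chr12:84754562-84773152) had 185 and 189.8 CPM in control and 168 and 169.8 CPM with IL-12 (−0.15, SE 0.04, edgeR adjusted p = 0.00585). Npc1 (chr18:12189693-12236400) had 62.0 and 62.6 CPM in control and 53.7 and 56.9 CPM with IL-12 (−0.17, SE 0.05, edgeR adjusted p = 0.0225). The changes of the partners were within 1 SE of each other. With single libraries left out, Mcoln1 and Lamp2 kept their calls, and 4 others lost theirs in some cases. Lamp1 was lost without control replicate 2 (adjusted p = 0.0738) or IL-12 replicate 2 (0.0675), Scarb2 without control replicate 1 (0.0823) or IL-12 replicate 1 (0.0652), and Npc2 without control replicate 2 (0.0751) or IL-12 replicate 1 (0.0592). Npc1 was lost without control replicate 1 (0.0612), control replicate 2 (0.0794) or IL-12 replicate 1 (0.207), and it overlaps Rmc1 on the opposite strand (2434 counts).

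Of the 3 transcription factors, Mitf fell and Tfeb and Tfe3 were not called. Mitf (ENSMUSG00000035158, chr6:97807052-98021349), best known as the master regulator of pigment cells, had the largest change of the 35 genes. It had 7.28 and 8.10 CPM in control and 4.34 and 4.20 CPM with IL-12, from 138, 153, 86 and 76 counts. The fitted difference was −44.4% (−0.85 on the log2 scale, SE 0.16, edgeR adjusted p = 0.000446). Tfeb, which moves to the nucleus when mTORC1 is inactive, had 13.1 and 13.7 CPM in control and 11.3 and 10.7 CPM with IL-12, with separate groups but an adjusted p of 0.0638. Tfe3 had 68.0 and 59.7 CPM in control and 60.7 and 56.0 CPM with IL-12, with overlapping groups and an adjusted p of 0.141. Without control replicate 2 the adjusted p of Tfe3 was 0.00951. These are RNA levels, and the activity of these factors is set largely by where the protein is in the cell.

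Among the 10 autophagy genes 5 fell (50%, beside 14.4% of all genes tested) and 5 were not called. Those that fell were the initiating kinase, 3 of the 4 listed ATG8-family tags and the listed cargo receptor. Gabarapl2, an ATG8-family gene outside the list, was not called (−0.07, edgeR adjusted p = 0.381). Gabarapl1 (ENSMUSG00000030161, chr6:129533160-129542346), an ATG8-family protein, had the smallest adjusted p of all 35 genes. It had 73.8 and 71.5 CPM in control and 52.5 and 53.8 CPM with IL-12, a difference of −26.9% with a wide gap between the groups (−0.45 on the log2 scale, SE 0.05, edgeR adjusted p = 2.47e-06). Ulk1, the kinase that starts autophagosome formation (ENSMUSG00000029512, chr5:110784488-110810097), had 193 and 193 CPM in control and 162 and 157 CPM with IL-12 (−0.28, SE 0.04, edgeR adjusted p = 1.81e-05). Sqstm1, the p62 receptor that brings ubiquitin-tagged cargo to the membrane (chr11:50199366-50210827), had 425 and 438 CPM in control and 393 and 384 CPM with IL-12 (−0.15, SE 0.03, edgeR adjusted p = 0.000900).

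Map1lc3b, which encodes LC3B (chr8:121590361-121598760), had 131 and 129.7 CPM in control and 118 and 112 CPM with IL-12 (−0.18, SE 0.04, edgeR adjusted p = 0.00391). Gabarap (chr11:69991143-69994951) had 168 and 177 CPM in control and 161 and 154 CPM with IL-12 (−0.13, SE 0.04, edgeR adjusted p = 0.0255). The other 5 of the 10 listed autophagy genes did not pass. Atg5 and Becn1 had fold changes of 0.07 and 0.05 on the log2 scale, Atg7 and Map1lc3a of −0.12 each and Wipi1 of −0.06, with adjusted p-values from 0.248 to 0.629. The interval of Atg5 ran from −0.12 to 0.26 and that of Becn1 from −0.06 to 0.16. Gabarap lost its call without control replicate 2 (adjusted p = 0.261), IL-12 replicate 1 (0.0559) or IL-12 replicate 2 (0.198), and Map1lc3b without IL-12 replicate 2 (0.0610). Map1lc3b shares 99.6% of 282 bases with Gm6055, which had 854 counts, and overlaps Zcchc14 on the opposite strand (10413 counts), so its count is uncertain.

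**Figure D3:**
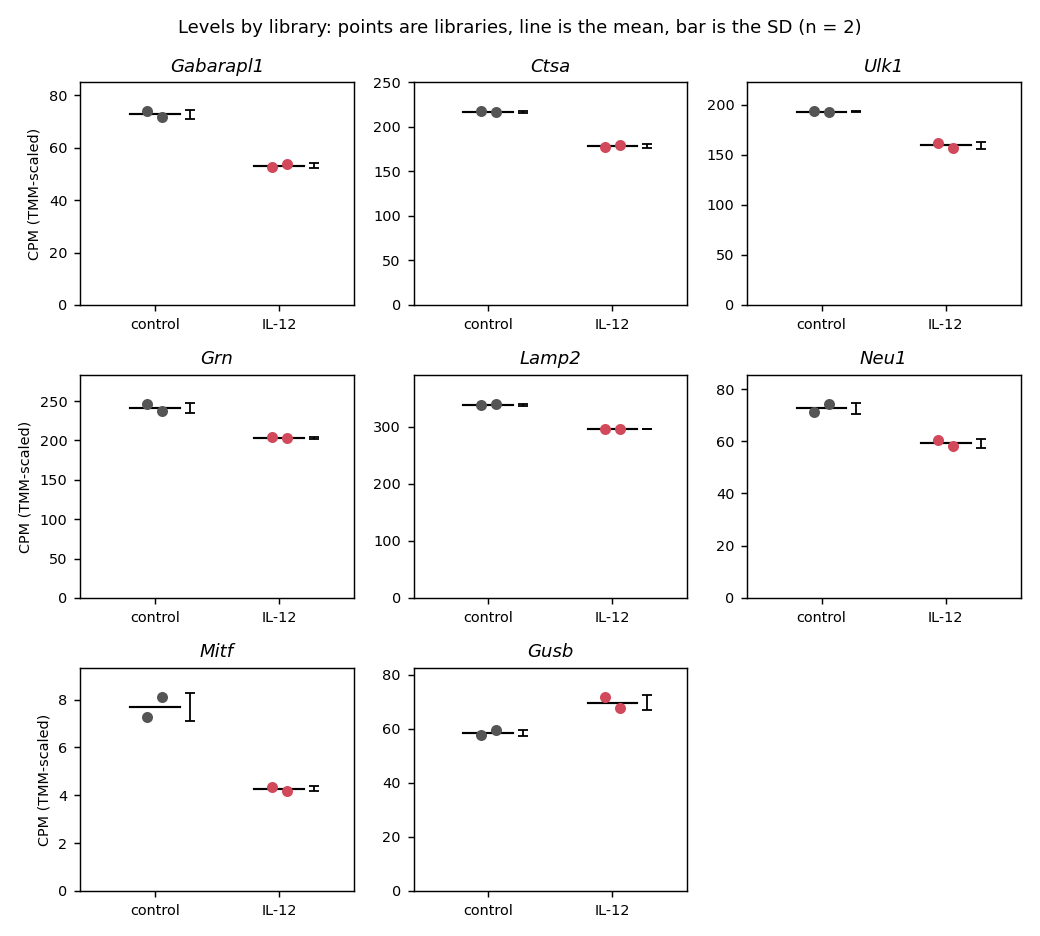
TMM-scaled CPM of 8 genes in each library, control replicates 1 and 2 and IL-12 replicates 1 and 2, one panel per gene with its axis from 0, the line marking the mean and the bar the SD (n = 2). Shown are the 7 genes that fell with the smallest edgeR p, and Gusb, the only gene that rose. The separation of the groups in these panels follows from that choice. In 7 panels both IL-12 libraries lie below both controls, as for 31.2% of all genes tested. The gap is widest in Mitf (4.34 and 4.20 against 7.28 and 8.10 CPM), and in the Gusb panel both lie above.

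The role groups were set side by side without a test between them, since genes are not replicates. Summed FPKM of the proteases was 518 and 525 in control and 492 and 478 with IL-12, a difference of −7.04%. The hydrolases and cofactors summed to 513 and 504 FPKM in control and 462 and 456 with IL-12, a difference of −9.73%. The membrane and cholesterol export genes summed to 322 and 328 FPKM in control and 299 and 295 with IL-12, a difference of −8.69%. The autophagy genes summed to 367 and 377 FPKM in control and 339 and 326 with IL-12, a difference of −10.7%. The transcription factors summed to 10.8 and 10.2 FPKM in control and 9.25 and 8.62 with IL-12, a difference of −14.9%. In each of the 5 role groups both IL-12 sums were below both control sums. The median log2 fold change was −0.11 for proteases, −0.17 for hydrolases and cofactors and −0.16 for membrane genes. It was −0.29 for transcription factors and −0.13 for autophagy genes. The transcription factor median is the value of Tfeb, which was not called, and of those 3 genes only Mitf was called. Together the 39 genes took 0.600% and 0.599% of all counts in control and 0.534% and 0.524% with IL-12.

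Other genes of the same pathways also fell more often than they rose. Of 139 genes in 7 groups, 136 were tested, 41 fell (30.1%) and 7 rose (5.15%), with a median log2 fold change of −0.11, beside 14.4% lower and 16.1% higher over all genes tested and 18.2% and 21.7% over those of at least 10 CPM. The count that fell was 25 without IL-12 replicate 1, and the count that rose was 4 without either control replicate, 1 without IL-12 replicate 1 and 3 without IL-12 replicate 2. Among other lysosomal enzymes 12 of 28 fell (42.9%) and 0 rose. The genes named below from each group, apart from Prkaa2, Sesn2, Cstb and Cst6, are those called with the smallest adjusted p. These need not have the largest change. Smpd1, the acid sphingomyelinase, had 87.4 and 85.2 CPM in control and 70.2 and 65.8 CPM with IL-12, and Gaa, the acid alpha-glucosidase, fell by 0.30 on the log2 scale. Of other membrane proteins 7 of 19 fell (36.8%), among them Laptm4a (−0.17) and the cystine exporter Ctns (−0.55), and 1 rose. That gene, Cln3, was past 2-fold (log2 fold change 1.25) on 17 and 12 counts in control and 31 and 38 counts with IL-12, and it overlaps Apobr on the opposite strand, which had 478 counts and a log2 fold change of 0.80.

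The proton pump that acidifies lysosomes had 15 subunit and accessory genes. Of these 3 fell (20%), a share near that of all genes of at least 10 CPM (18.2%), and 1 rose (6.67%). In 12 of the 15 both IL-12 libraries were below both controls, beside 31.2% of all genes tested, and in 1 they were above. The median log2 fold change of the 15 was −0.07, beside −0.0022 over all genes tested. Atp6v1a fell (413 and 406 CPM in control, 344 and 359 CPM with IL-12), as did Atp6v0d1 (−0.19), and Atp6v1g1 rose (0.17). Of 9 genes that sort enzymes to lysosomes, 2 fell and 2 rose (22.2% each), shares near those of all genes of at least 10 CPM (18.2% and 21.7%). Sort1, the sortilin receptor, had 195 and 194 CPM in control and 141 and 141 CPM with IL-12 (−0.47, edgeR adjusted p = 2.86e-08), and Igf2r, the large mannose 6-phosphate receptor, fell by 0.16 on the log2 scale. The small mannose 6-phosphate receptor M6pr rose by 0.15, and Gnptab, which helps build the mannose 6-phosphate tag, by 0.18.

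Of 39 other autophagy genes 9 fell (23.1%, beside 14.4% of all genes and 18.2% of those of at least 10 CPM) and 2 rose (5.13%). Calcoco1, an autophagy receptor of the endoplasmic reticulum, had 77.6 and 74.7 CPM in control and 49.3 and 51.7 CPM with IL-12, and the mitophagy receptor Bnip3 had 23.5 and 20.9 CPM in control and 13.8 and 12.8 CPM with IL-12. Vmp1, a lipid scramblase of autophagosome formation, rose by 0.24 on the log2 scale, and Atg3, the LC3-conjugating enzyme, by 0.14. Of 23 nutrient-sensing genes 7 fell (30.4%), among them the sestrins Sesn3 (−0.44) and Sesn1 (−0.56), while Sesn2 was not called (0.04). The AMP kinase subunit gene Prkaa1 rose (0.18), and Prkaa2, another subunit gene of that kinase, fell (−0.33). Of the 3 cathepsin inhibitors 1 fell, so the share of 33.3%, beside 14.4% of all genes, rests on a single gene. It was Cst3, which encodes cystatin C, from 511 and 545 CPM to 472 and 456 CPM. Cstb (0.13) and Cst6 (−0.14, on 4 to 15 counts) were not called.

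**Figure D4:**
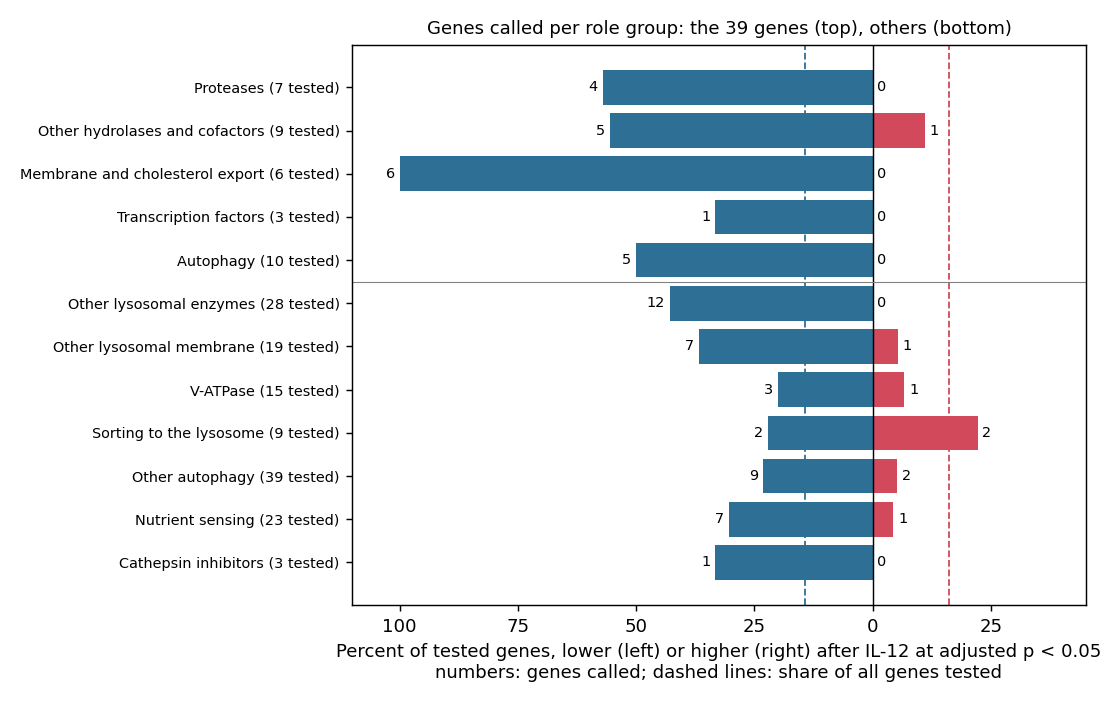
Percentage of tested genes called higher or lower with IL-12 in each role group, for the 39 genes (top) and the other pathway genes (bottom), with the share over all genes tested marked. The membrane and cholesterol export group stands at 100% lower, and all 5 groups of the 39 genes exceed the 14.4% of all genes. The transcription factor group does so through 1 gene of 3.

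Markers of other cell types were examined beside these counts, since macrophages are rich in lysosomes. Of 12 macrophage markers 5 had no count in any library, among them Adgre1 and Tyrobp, and the pan-leukocyte gene Ptprc had 3, 1, 6 and 12 counts. The 2 that could be tested fell with IL-12, Csf1r by 0.88 and Cd14 by 0.64 on the log2 scale. The summed FPKM of the 12 was 14.7 and 13.6 in control and 8.72 and 8.63 with IL-12. The endothelial markers had 5 counts or fewer in every library. Of 5 tubule markers Slc34a1 and Umod had no count, and Lrp2, the endocytic receptor megalin, fell from 658 and 632 CPM to 516 and 557 CPM. Among podocyte markers Synpo fell from 489 and 469 CPM to 301 and 307 CPM, while Podxl and Actn4 rose. The part of these markers in the lysosome and autophagy results was not tested.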

How the data were processed

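Total RNA of 4 cell line libraries was sequenced. The authors deposited raw counts per gene, not normalized, and FPKM values, which equal the count per kilobase and library total times a constant per library and add no information. The submitters' processing notes name HISAT2, StringTie and the build mm9, with no order. The deposited coordinates nevertheless equal GENCODE M21 (GRCm38) for 98.3% of 54409 shared genes and 37 of the 39 genes, and are given as GRCm38. Whether strand was used in counting is not given in the sources used here. The dose was taken from the study's methods and the time from the labels.

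The count fit used edgeR 4.0.16 under R 4.3.3 (filterByExpr with at least 10 counts and 15 in total, TMM scaling, quasi-likelihood test, Benjamini-Hochberg adjustment over 14095 genes, group as the only term). CPM values are TMM-scaled. Totals per library ranged from 18355379 to 20098012. Libraries of 1 group differed by more than sampling noise (chi-square per degree of freedom 2.20 and 2.52). Alternatives used DESeq2 1.42.0 and limma 3.58.1, 2 pseudocounts (1 and 0.1) on the FPKM values, other scalings, filters and thresholds, a replicate block, and single libraries left out. Near copies were sought with BLAST 2.17.0, and figures were drawn with matplotlib 3.10.9. The fit was tested on simulated data.

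The genes and lists were chosen with earlier results of these data known. Every one of the 39 genes is given, and of each other group up to 2 genes per direction with the smallest adjusted p. Gabarapl2, Prkaa2, Sesn2, Cstb and Cst6 were named in addition, after their values were seen. The 10 CPM background was added after the values were seen.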

Additional observations from a re-analysis of the deposited data

How the results depend on the processing

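The count of lysosome and autophagy genes that fell stayed within 1.5 times the main 21, from 14 to 23, under every alternative run, and was 14 to 17 with a single library left out. The count that rose was 1 under every alternative but the fit without IL-12 replicate 1, and 0 to 1 with a library left out. With a 1.5-fold limit 1 gene passed in place of 0, which was Mitf. The share of all genes past that limit was not counted, so this count has no background beside it. The median log2 fold change ran from −0.17 to −0.13 with a library left out, and was −0.19 with total counts in place of TMM, a scaling that also moved the median of all genes to −0.043 and the share of higher genes among those called from 52.8% to 40.5%. The median over the 4 pairs of a control and an IL-12 library had an SD of 0.0207.

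Among other pathway genes, the count that rose was 4 with total counts, 3 with the DESeq2 Wald test and 3 at an adjusted p below 0.01, and 1 to 4 with a library left out, compared with 7. The count that fell was 25 to 35 with a library left out, compared with 41. The cause of these differences was not tested, and fits with a library left out also rest on fewer libraries. No called value changed direction. Atg5, Becn1, Ctsl, Ctsz and Gla, which were not called, changed sign under some settings. Mitf ranged from −0.92 to −0.41, the latter with a pseudocount of 1 on its FPKM values, which understates changes of low genes.

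No source says whether the replicate numbers pair the libraries. Same-numbered deviations correlated at −0.0297 across genes, a single value that cannot show whether such libraries were handled together. With the replicate block 20 genes fell and the median was −0.15, and Lgmn was the call lost. Ctsa, Ctsd, Neu1, Psap, Grn, Lamp2, Mcoln1, Mitf, Ulk1, Gabarapl1 and Sqstm1 kept their calls under the 15 alternatives that leave the threshold at 0.05, and Lgmn lost its call under 10 of them. At this depth Ctsf, Ctsh, Ctsk and Ctss were too low to be tested.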
